A study of Mus musculus with 20 samples.

Results

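A set of 10 related zinc finger genes of distal mouse chromosome 2, 8 of them in near-identical pairs, was followed through 20 RNA sequencing libraries of cultured cortical neurons: Gm2004, Gm14419, Gm14418, Gm14322, Gm14305, Gm14308, Gm14295, Gm14391, Zfp965 and Zfp973. They are 10 of the 14700 genes listed in any of the 4 deposited tables, matched by symbol. They were chosen by their KO and WT levels in these same libraries, where Gm2004, Gm14419 and Gm14418 in normoxia and Zfp965 and Zfp973 under OGD (defined next) differed between genotypes, with their closest copies added, so differences between genotypes are given as a description, without a test. The response to oxygen and glucose deprivation was tested only for those closest copies. For the 5 chosen genes it shares libraries with the choice, so it is given as values with SE, without a p.

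The cells were primary cortical neurons of embryonic day 15, kept for 7 days in culture. All carry the strain label C57BL/6N-Cdr1asem1Nikr, and the genotype is wild type (WT) or knockout (KO) of ciRS-7, a circular RNA whose locus is listed as Cdr1as. Cultures spent 12 h either in normoxia with 25 mM glucose, 0.2 mM pyruvate and 5% CO2 (N), or in 1% oxygen and 5% CO2 with no glucose added (oxygen and glucose deprivation, OGD). The groups are called N_WT, N_KO, OGD_WT and OGD_KO, with 5 libraries in each, and an N and an OGD library with the same number share a culture label and a batch label. The labels do not say whether cultures came from separate animals, so p-values measure the spread between these cultures. Recovered depth ranged from 7073212 to 16663326 reads per library over the listed genes. Cdr1as had 545 to 1912 reads in the WT libraries and 2 to 16 in the KO libraries, as labelled. All 8 neuron markers were measured, and none of the 5 microglia or 4 endothelial markers was listed in the tables.

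These genes encode proteins with long arrays of C2H2 zinc fingers, modules that each grip a few bases of DNA. Proteins of the large family they belong to join such an array to a KRAB domain, which recruits the corepressor TRIM28 and, with it, histone methylation and silencing. Members of that family are known for silencing transposable elements and arise by repeated duplication, which leaves tandem clusters of nearly identical copies.

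The copies lie within 2.58 Mb of chromosome 2 (chr2:175191065-177770472, build GRCm38, GENCODE M21), 6 on the plus and 4 on the minus strand. That span holds 67 annotated genes, of which 35 are protein coding, 31 are pseudogenes and 28 were measured. GENCODE lists all 10 as protein coding, while RefSeq lists Gm14418 as a pseudogene. Gm2004 is at chr2:176141591-176149825 on the minus strand and Gm14419 at chr2:177000956-177012787 on the plus strand. Zfp965 is at chr2:175469985-175482171 and Zfp973 at chr2:176670522-176719085, both on the plus strand. The annotated extent of Zfp973 overlaps that of Gm14305 (chr2:176708328-176721813) on the same strand, so reads in the overlap could count for either.

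By coding sequence, 8 of the 10 formed 4 pairs of over 99% identity. Gm2004 and Gm14419 were identical over 1746 coding bases, with 17 zinc finger motifs each. Zfp965 and Zfp973 were identical over 954 bases, with 6 motifs each. Gm14322 and Gm14418 differed at 2 of 1074 coding bases (T350C and G928A, Gm14322 first, counted from the A of the start codon), with 8 motifs each. Gm14305 and Gm14308 differed at 7 of 1494 bases, with 14 and 13 motifs. Gm14391, with 16 motifs, and Gm14295, with 25, had no such partner among the members. Outside its pair, the member closest to Gm2004 by coding identity was Gm14391, at 89.4%. By 50-base words of its transcripts it was Gm14295, which holds 72.2% of those of Gm2004 against 40.9% for Gm14391.

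**Figure D1:**
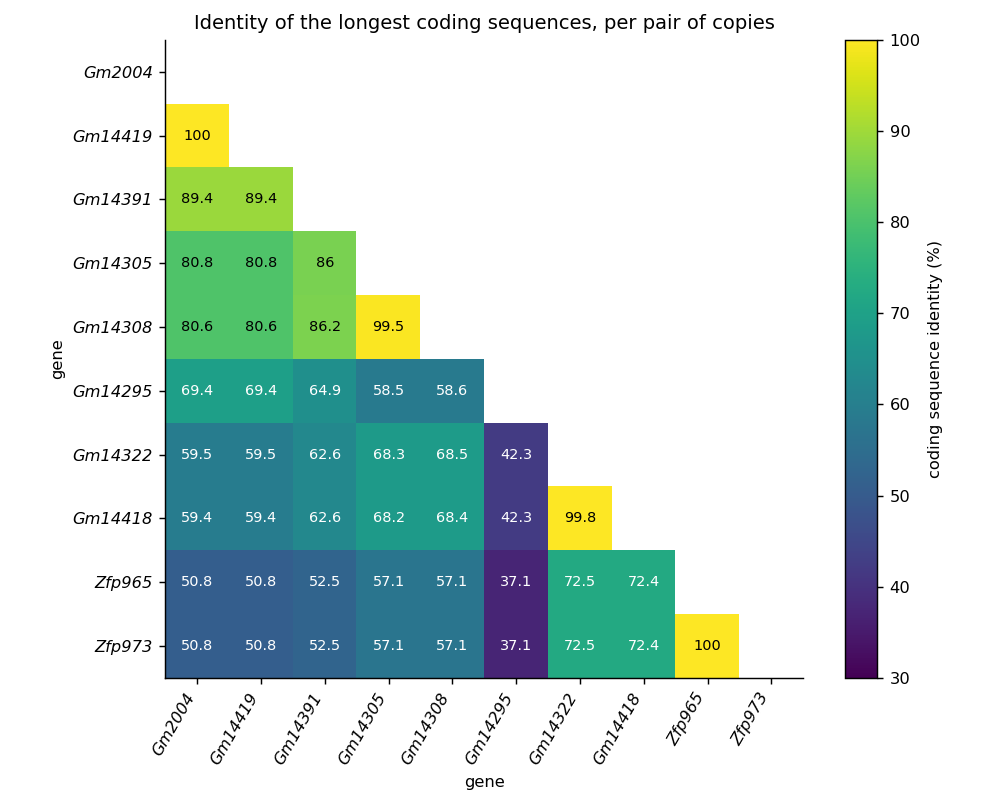
Percent identity of the longest annotated coding sequences for every pair of the 10 copies, both axes listing the genes and each cell one pair. The 4 pairs above 99% stand out, while Zfp965 and Zfp973 share 37.1% to 72.5% with the copies outside their own pair.

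The following 2 places are the only bases of the longest annotated coding sequences that tell Gm14322 from Gm14418, shown because they are the sole coding handle for assigning a read to one or the other. Capitals mark the differing base.
Gm14322, coding bases 330 to 370: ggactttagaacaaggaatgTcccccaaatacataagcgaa
Gm14418, coding bases 330 to 370: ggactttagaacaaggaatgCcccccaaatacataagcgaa
Gm14322, coding bases 908 to 948: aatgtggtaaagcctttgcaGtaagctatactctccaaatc
Gm14418, coding bases 908 to 948: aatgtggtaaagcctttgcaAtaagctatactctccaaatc
Gm2004 and Gm14419 offer no such place. Their coding sequences start with the same 75 bases and continue identically, with the start codon in capitals here.
Gm2004 and Gm14419: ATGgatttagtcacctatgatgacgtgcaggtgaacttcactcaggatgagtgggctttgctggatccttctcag

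The limits this sets on each count can be stated. Every 50-base word of the annotated Gm2004 transcripts (100% of 1465) also occurs in another gene, and all of them occur in Gm14419. For the other members the share of such words found elsewhere ran from 35.8% (Gm14391) and 55.7% (Gm14418) to 96.3% (Zfp965) and 98.1% (Gm14308). It was 94.3% for Gm14419, 84.7% for Zfp973 and 86.3% for Gm14322. How the authors assigned reads that fit several copies is not given in the sources used here, so a level of one copy and the sum over its pair are given together below. A pair sum does not cover words shared outside the pair. Gm14434, which was not measured, holds 81.6% of the words of Gm14305 and 81.1% of those of Gm14308. Gm14295 holds 73.3% of those of Gm14419. Gm6710, measured but not a member, holds 35.7% of those of Gm14391.

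The start regions are shared as well. RefSeq promoters (GRCm38.p6, 250 bases before to 50 after the start) were matched for 8 of the 10, all but Gm14418 and Gm14419, and hold a common stretch of 227 to 229 bases. The stretch of Gm2004 is printed with 3 others, chosen to show the closest and the more distant kinds. Capitals mark bases that differ from Gm2004, and a base that is missing is counted but not marked. The RefSeq start of Gm2004 lies outside the extent GENCODE gives the gene.
Gm2004, chr2:176153426-176153654, minus strand: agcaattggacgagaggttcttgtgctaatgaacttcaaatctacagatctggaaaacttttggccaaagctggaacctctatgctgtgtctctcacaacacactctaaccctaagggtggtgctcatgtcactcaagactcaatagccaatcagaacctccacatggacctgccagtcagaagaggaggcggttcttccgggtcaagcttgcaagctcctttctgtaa
Zfp973, chr2:176670338-176670565, plus strand: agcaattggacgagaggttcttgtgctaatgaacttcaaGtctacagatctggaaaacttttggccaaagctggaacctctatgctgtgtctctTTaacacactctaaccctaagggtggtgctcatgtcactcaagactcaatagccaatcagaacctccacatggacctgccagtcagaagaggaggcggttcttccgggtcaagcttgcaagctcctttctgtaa
Gm14305, chr2:176708103-176708330, plus strand: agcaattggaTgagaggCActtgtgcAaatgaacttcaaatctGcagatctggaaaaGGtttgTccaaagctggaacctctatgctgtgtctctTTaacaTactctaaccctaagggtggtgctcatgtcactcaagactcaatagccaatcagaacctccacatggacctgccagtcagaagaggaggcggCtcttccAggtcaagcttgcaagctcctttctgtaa
Gm14391, chr2:175206875-175207102, minus strand: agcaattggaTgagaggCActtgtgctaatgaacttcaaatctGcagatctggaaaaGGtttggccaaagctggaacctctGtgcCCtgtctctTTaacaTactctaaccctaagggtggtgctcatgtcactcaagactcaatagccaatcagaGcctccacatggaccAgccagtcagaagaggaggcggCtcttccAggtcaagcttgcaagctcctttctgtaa
The stretch of Zfp965 is the same as that of Zfp973. Differences from Gm2004 numbered 3 for Gm14295, 4 for Zfp965 and Zfp973, 14 for Gm14305, 15 for Gm14322, 16 for Gm14308 and 17 for Gm14391. Gm2004, Gm14295, Zfp965 and Zfp973 differed among themselves by 0 to 4 bases and the other 4 by 3 to 7, while 11 to 17 bases separated one kind from the other. The motif CCAAT, searched on both strands, was in all 8 member promoters and in 37.4% of 32851 RefSeq mouse promoters of the same length. ACGTG, the core of the hypoxia response element, was in 0 of 8 against 19.6% of all promoters. TATAAA was in 0 of 8 against 13.6%. The common stretches of the 8 are 92.6% to 100% identical in pairs. They are copies of a shared sequence rather than separate promoters, so nothing is read from these counts against all promoters.

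Reads assigned to Gm2004 were present in wild-type neurons in normoxia and at or near 0 in the other groups in which it was listed. N_WT libraries 1 to 5 held 129, 87, 69, 85 and 37 reads, a mean of 7.63 ± 1.76 CPM (recovered reads scaled to a common library total; SD, n = 5). All 5 N_KO libraries held 0 reads, which allows at most 0.203 to 0.396 CPM of assigned reads per library (a limit of 3 reads, counting error only). OGD_WT held 0, 0, 0, 5 and 0 reads.

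The N_WT libraries thus lay apart from every other library with a value, with no overlap. Against that limit, the N_WT mean of assigned reads was at least 26.3-fold that of N_KO. Every 50-base word of Gm2004 also occurs in Gm14419, so this does not bound the level of the gene itself. Summed reads were 407 in N_WT and 5 in OGD_WT, all 5 of them in library 4. Gm2004 is in neither table that holds OGD_KO with another group. In both tables that list it, the gene could pass a filter on low values only through N_WT, the group where it is high.

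Gm14419, whose coding sequence is the same, showed the opposite order between genotypes at a much lower level. N_WT held 1, 8, 4, 5 and 4 reads (0.444 ± 0.216 CPM) and N_KO held 16, 23, 15, 14 and 29 (1.76 ± 0.211 CPM; SD, n = 5). The groups did not overlap, and the log2 CPM was 1.51 ± 0.23 (SE) higher in N_KO. In the normoxia comparison of genotypes, 0.325% of 14152 genes had groups that did not overlap, and among the 10 copies these were Gm2004, Gm14419 and Gm14418, the contrast on which the copies were chosen. Summed over Gm2004 and Gm14419, the level was 8.07 ± 1.60 CPM in N_WT and 1.76 ± 0.21 CPM in N_KO, a ratio of 0.218 with no overlap. The level of Gm14419 in N_KO thus lay well short of that of Gm2004 in N_WT.

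Under OGD in KO neurons Gm14419 was lower. OGD_KO held 6, 11, 5, 0 and 8 reads (0.525 ± 0.415 CPM), below all N_KO libraries, and the log2 CPM differed by -1.11 ± 0.28 (SE), lower in 5 of 5 cultures. N_KO is the group in which Gm14419 was high when it was chosen, so nothing is read from this difference. Gm14419 is in no table with OGD_WT, so the sum of this pair could not be followed through OGD.

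**Figure D2:**
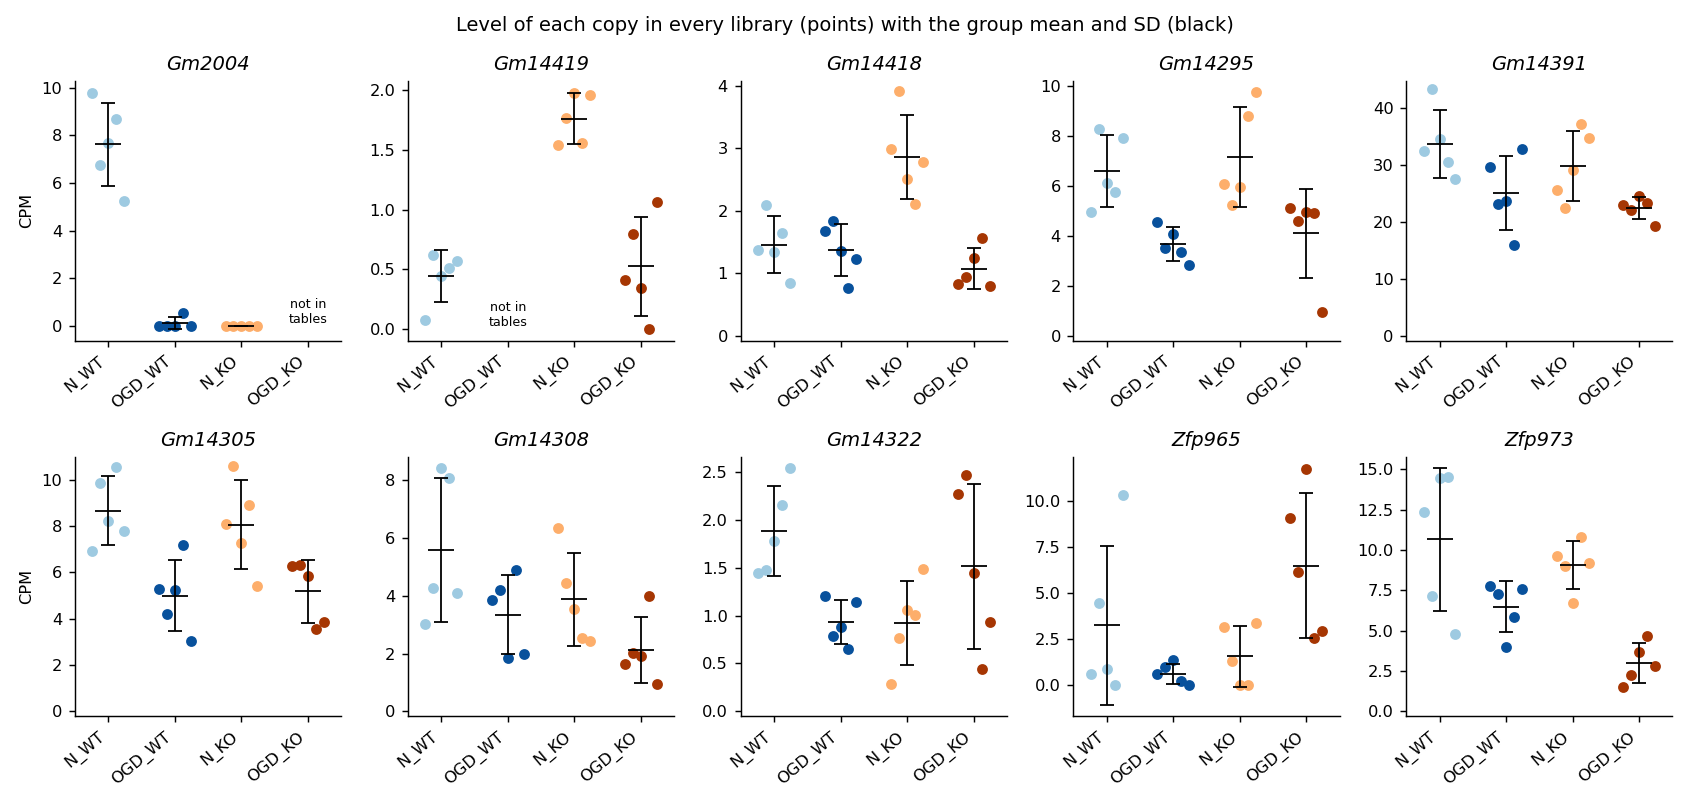
CPM of each of the 10 copies, a panel per gene with its own axis starting near 0. Points are libraries 1 to 5 from left to right in each group, and black bars give the mean ± SD. Gm2004 stands above 5 CPM in N_WT and at or near 0 in OGD_WT and N_KO.

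Zfp965 and Zfp973, identical in coding sequence and in the common start region, differed in opposite directions between OGD and normoxia in KO neurons. Zfp965 had 33, 17, 0, 0 and 50 reads in N_KO and 132, 85, 171, 23 and 22 in OGD_KO. Its log2 CPM was 2.36 ± 0.52 (SE) higher in OGD_KO, with overlapping groups. It was higher in 5 of 5 cultures on the scaling of the deposited table and in 4 of 5 as CPM over the table total, where culture 5 was lower. Zfp973 had 100, 117, 51, 97 and 136 reads in N_KO and 22, 31, 53, 42 and 21 in OGD_KO.

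The difference of Zfp973 was -1.28 ± 0.22 log2 CPM, lower in 5 of 5 cultures with no overlap. Both were chosen on their OGD_KO levels. The pair together was 10.6 ± 2.45 CPM in N_KO and 9.49 ± 3.77 CPM in OGD_KO (SD, n = 5), a ratio of 0.891 that was 1.08 on the scaling of the deposited table, and these groups overlapped. So the share of the pair's reads given to Zfp965 was 12.9% ± 12.9 in N_KO (range 0% to 26.9%) and 64.4% ± 20.6 in OGD_KO (range 35.4% to 85.7%), without overlap.

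In WT neurons Zfp965 is in no table that compares OGD with normoxia. Its reads were 8, 58, 8, 0 and 73 in N_WT and 10, 11, 17, 2 and 0 in OGD_WT. Libraries 2 and 5 of N_WT were high and the rest low, so the group's SD (4.32 CPM) exceeded its mean (3.26 CPM). Zfp973 had 163, 92, 130, 142 and 34 reads in N_WT and was lowest in library 5, where Zfp965 was highest. The summed pair was steadier, at 13.9 ± 1.58 CPM in N_WT (range 11.6 to 15.3).

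Zfp973 in OGD_WT had 129, 83, 50, 54 and 80 reads. Its difference from N_WT was -0.34 ± 0.25 log2 CPM, and the groups overlapped. Between genotypes under OGD, Zfp965 was 2.86 ± 0.42 log2 CPM higher in OGD_KO than in OGD_WT with no overlap, and Zfp973 was lower by a difference of -1.07 ± 0.24 with overlap. In that comparison 0.345% of 14185 genes had groups that did not overlap. The summed pair was 9.49 ± 3.77 CPM in OGD_KO and 7.11 ± 1.35 CPM in OGD_WT, and these overlapped.

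**Figure D3:**
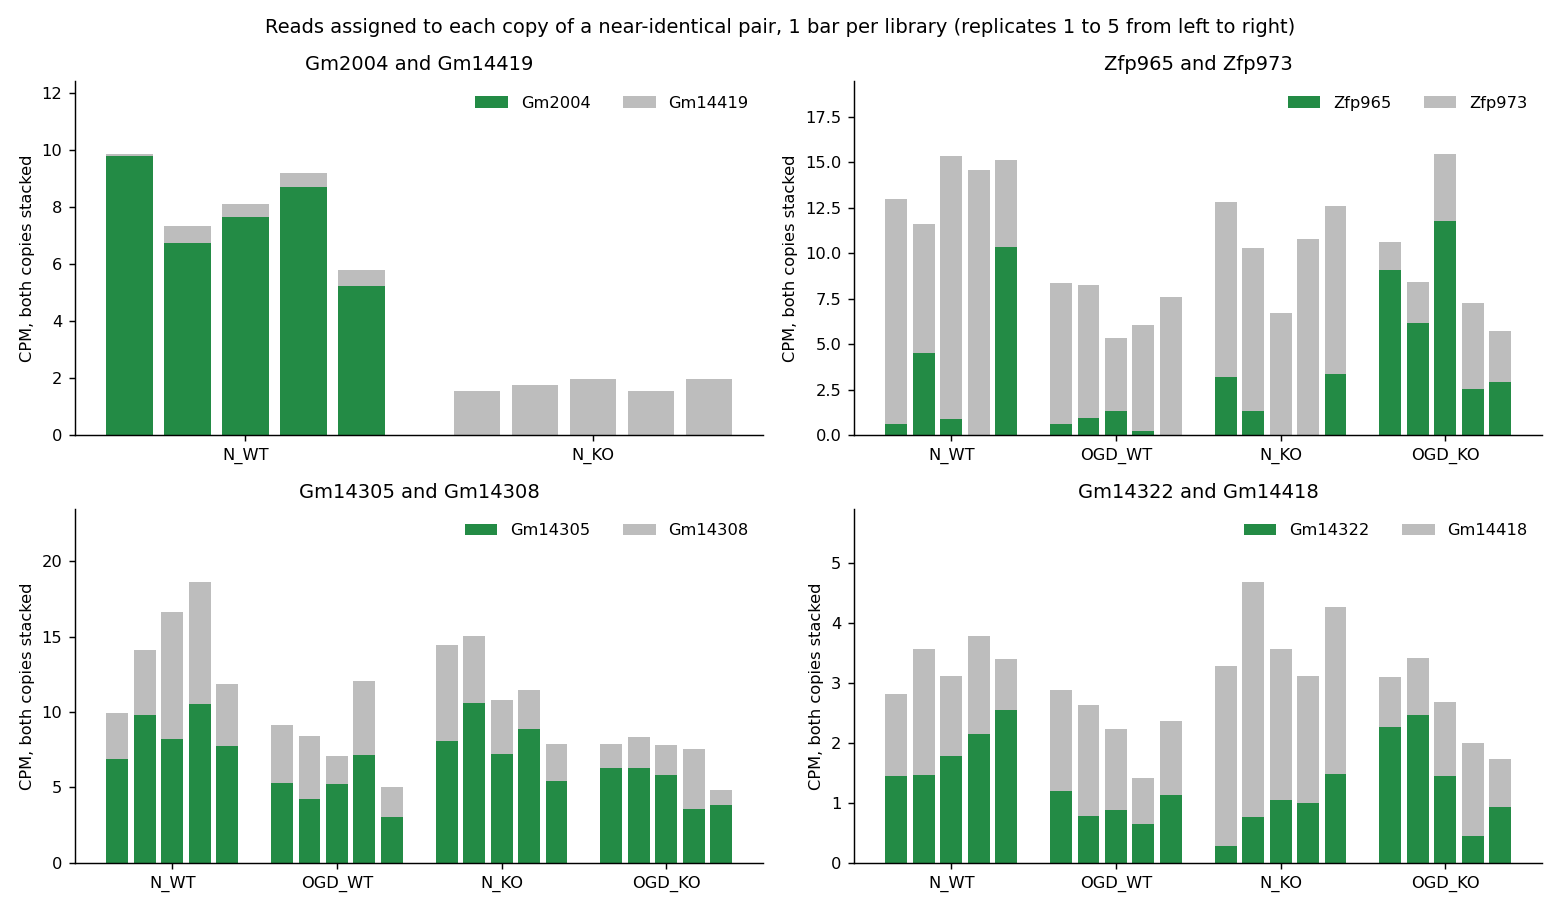
CPM assigned to the 2 copies of each near-identical pair, stacked, with 1 bar per library (1 to 5 from left to right in each group) and the groups on the horizontal axis. For Zfp965 and Zfp973 the bar heights overlap between N_KO (6.73 to 12.8 CPM) and OGD_KO (5.74 to 15.4 CPM). Within cultures they vary, from 6.73 to 15.4 CPM in culture 3 and from 12.6 to 5.74 CPM in culture 5. The Zfp965 part is at most 26.9% in N_KO and at least 35.4% in OGD_KO.

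Gm14322 and Gm14418, told apart by 2 coding bases, also shifted against each other. In N_WT Gm14322 held 19, 19, 16, 21 and 18 reads and Gm14418 held 18, 27, 12, 16 and 6. In N_KO Gm14322 held 3, 10, 8, 9 and 22 reads and Gm14418 held 31, 51, 19, 19 and 41. Gm14418 was 0.88 ± 0.20 log2 CPM higher in N_KO with no overlap, and Gm14322 differed by -0.85 ± 0.26 with overlap.

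The Gm14322 share of the pair was 56.3% ± 12.2 in N_WT and 24.4% ± 11.2 in N_KO (SD, n = 5), ranges that do not overlap (41.3% to 75% and 8.82% to 34.9%). The pair's sum was 3.33 ± 0.384 CPM in N_WT and 3.78 ± 0.672 CPM in N_KO, and these overlapped. Under OGD the genotypes were close for Gm14418, with a KO minus WT difference of -0.25 ± 0.22 log2 CPM, and Gm14322 was 0.44 ± 0.30 higher in OGD_KO, both with overlap. The Gm14322 share there was 41.0% ± 7.07 in OGD_WT and 55.1% ± 20.7 in OGD_KO, with overlapping ranges (30% to 48% and 22.2% to 73.3%), and its mean was higher in KO, the reverse of normoxia.

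Between OGD and normoxia, the copies of this pair differed as follows. In WT, Gm14322 had 20, 9, 11, 6 and 12 reads in OGD_WT and fell by 0.56 ± 0.20 log2 CPM (limma adjusted p = 0.0285, 5 of 5 cultures), while the difference of Gm14418 was 0.15 ± 0.21. With the culture as a block the adjusted p of Gm14322 was 0.0561. Of its 50-base words 85.8% also occur in Gm14418, which was chosen on its N_WT and N_KO levels. No p of Gm14322 is therefore free of that choice. In KO, Gm14418 had 12, 13, 18, 14 and 6 reads in OGD_KO and a difference of -0.90 ± 0.19 log2 CPM from N_KO (5 of 5 cultures, no overlap), the group in which it was high when it was chosen.

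Gm14322 in OGD_KO had 33, 34, 21, 4 and 7 reads, high in 3 libraries and low in 2. Its difference from N_KO was 0.66 ± 0.30 log2 CPM (limma adjusted p = 0.0884). The pair's sum was lower under OGD in both genotypes, with ratios of 0.691 in WT (4 of 5 cultures) and 0.684 in KO (5 of 5, and 4 of 5 on the scaling of the deposited table), and the groups overlapped. Whether the OGD response of either copy differs between genotypes was not tested.

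Gm14305 and Gm14308 showed no such exchange. Gm14305 had 91, 127, 74, 103 and 55 reads in N_WT and 88, 48, 66, 66 and 32 in OGD_WT, and fell by 0.52 ± 0.20 log2 CPM (limma adjusted p = 0.0374, 5 of 5 cultures). In KO its difference was -0.33 ± 0.19 (limma adjusted p = 0.175), also lower in 5 of 5 cultures. Its reads were 84, 138, 55, 80 and 80 in N_KO and 91, 87, 85, 32 and 29 in OGD_KO.

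Gm14308 had 40, 55, 76, 79 and 29 reads in N_WT and 64, 48, 23, 45 and 21 in OGD_WT. In N_KO it had 66, 58, 27, 23 and 36 and in OGD_KO 24, 28, 28, 36 and 7. Its OGD differences were -0.40 ± 0.27 in WT (limma adjusted p = 0.234) and -0.55 ± 0.26 in KO (adjusted p = 0.1). Gm14305 took 60.4% to 71.5% of the pair's reads as group means, and the ranges of all 4 groups overlapped. The pair's sum under OGD was 0.585 of its normoxia level in WT and 0.611 in KO, lower in 5 of 5 cultures each (4 of 5 in WT on the scaling of the deposited table), with overlapping groups. Between genotypes the sums were 14.2 ± 3.51 CPM in N_WT and 11.9 ± 2.93 in N_KO, and 8.34 ± 2.59 in OGD_WT and 7.29 ± 1.42 in OGD_KO, overlapping in both conditions.

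Gm14295 and Gm14391 have no close partner among the members. Gm14295, with the longest zinc finger array of the set, had 65, 107, 55, 56 and 56 reads in N_WT and 76, 40, 51, 31 and 30 in OGD_WT. It fell by 0.51 ± 0.18 log2 CPM in WT (limma adjusted p = 0.0213, 4 of 5 cultures), with 0.065 under the culture block. In KO the difference was -0.61 ± 0.29 (limma adjusted p = 0.102).

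Gm14295 had 63, 68, 45, 79 and 144 reads in N_KO and 74, 63, 72, 44 and 7 in OGD_KO, so library 5 of OGD_KO stood far below the other 4. Gm14391, the member with the most reads, had 427, 559, 311, 297 and 195 in N_WT and 494, 264, 296, 146 and 345 in OGD_WT. In N_KO it had 265, 292, 220, 334 and 512 and in OGD_KO 333, 303, 356, 209 and 144. As CPM, these levels overlapped between OGD and normoxia in each genotype. Its OGD differences were -0.17 ± 0.17 log2 CPM in WT (limma adjusted p = 0.422) and -0.10 ± 0.15 in KO (adjusted p = 0.642). Gm14391 and Gm14295 overlapped between genotypes in both conditions, with differences from -0.15 to 0.13 log2 CPM.

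Of the 5 copies not chosen on their own levels, limma called 3 in the WT response to OGD, all lower (Gm14322, Gm14305 and Gm14295). In that comparison it called 44.3% of 14235 genes, 21.6% higher and 22.8% lower under OGD. In KO it called 0 of these 5, with 2 at an unadjusted p under 0.05 and 0 called by limma voom on recovered reads. There limma called 40.9% of 14375 genes, 21% higher and 19.9% lower. Whether the response differs between genotypes was not tested. The WT calls were not stable, and that of Gm14322 is not free of the choice of its partner Gm14418. Of the 7 copies in the WT fit, which include the chosen Gm14418 and Zfp973, leaving out culture 3 left 0 called. In the same WT fit, leaving out culture 2 or 5 left 1, and the culture block left 1 (Gm14305).

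**Figure D4:**
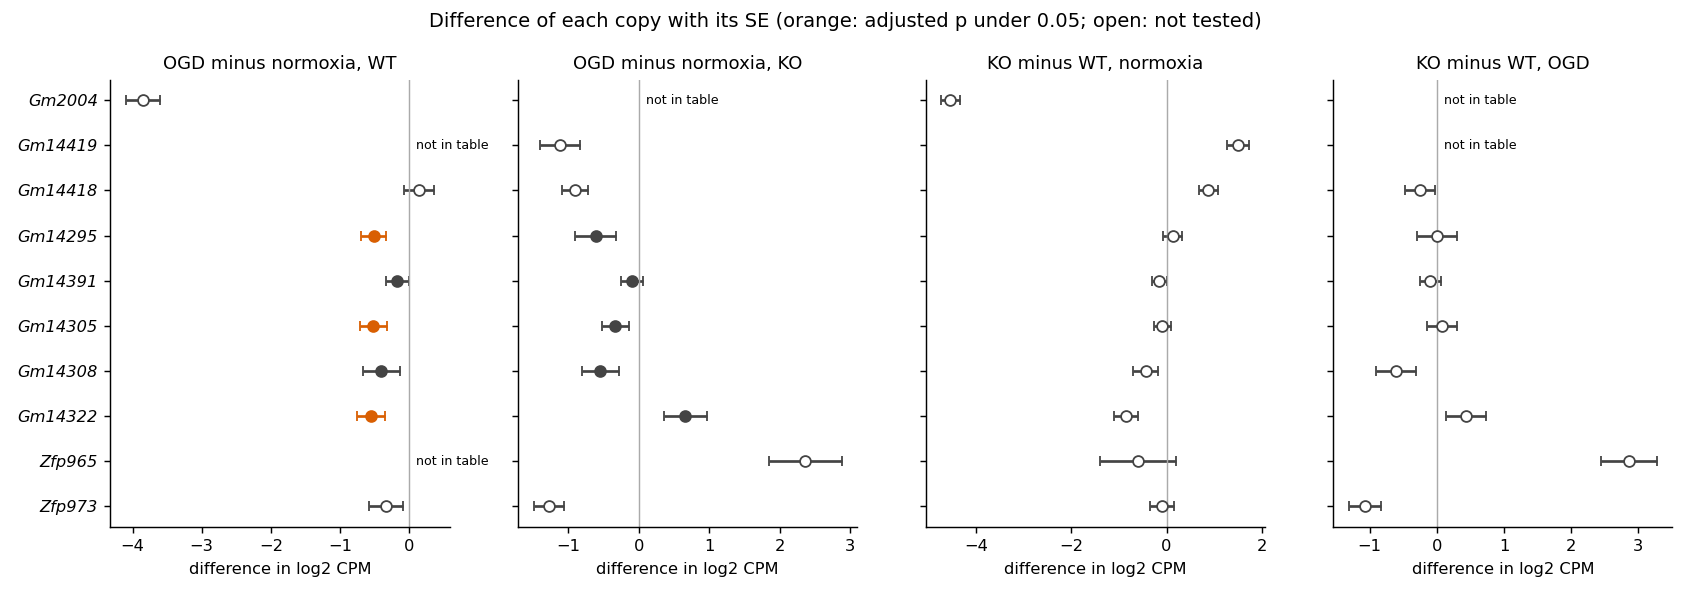
Difference in log2 CPM with its SE (horizontal axis) for each copy (vertical axis) in the 4 comparisons. Orange points passed the test, filled grey points did not, and open points were not tested, which includes the 5 copies chosen on these libraries. Zfp965 and Zfp973 lie on opposite sides of 0 in KO under OGD.

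Because the copies share reads, their levels were also summed. The 7 copies listed in all 4 tables are Gm14418, Gm14322, Gm14305, Gm14308, Gm14295, Gm14391 and Zfp973. Zfp973 is among them without Zfp965, which has the same coding sequence, so how reads were split within that pair affects this sum. In N_WT libraries 1 to 5 their sum was 62.5, 76.4, 74.9, 73.1 and 55.6 CPM, and in OGD_WT it lay between 38.5 and 54.0 CPM. In N_KO it was 59.0, 56.4, 56.1, 71.2 and 65.8 CPM, and in OGD_KO 40.6, 40.6, 43.6, 42.5 and 29.5 CPM.

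As CPM over the table total, OGD libraries lay below normoxia libraries in both genotypes, without overlap and in 5 of 5 cultures, with ratios of 0.668 in WT and 0.638 in KO. On the scaling of the deposited tables the ratios were 0.811 and 0.774, and in WT the groups overlapped and only 3 of 5 cultures were lower, while in KO there was no overlap and 5 of 5 were lower. These 7 include Gm14418, chosen where it was high in N_KO, and Zfp973, chosen on its OGD_KO levels. Nothing is therefore read from the KO separation on either scaling. KO to WT ratios of these 7 were 0.901 in normoxia and 0.860 under OGD, with overlap. With every member present in a table, the OGD sum was 0.603 of normoxia in WT (8 copies, Gm2004 among them) and 0.713 in KO (9 copies, without Gm2004), so these sums do not cover the same genes. They include chosen genes as well. Without OGD_KO library 5, the lowest of its group, the KO ratio was -0.39 on the log2 scale against -0.49 with it. These ratios are on the scale of CPM over the table total, on which the median of all genes was also lower under OGD, at 0.81 in WT and 0.823 in KO. On TMM-scaled reads, where that median is near 1, the sums were 0.731 in WT and 0.865 in KO. On the scaling of the deposited tables these sums of every member present were also 0.731 and 0.865. There the groups overlapped in both genotypes, and 5 of 5 cultures were lower in WT and 4 of 5 in KO. In normoxia, the 10 copies summed to 79.8 ± 7.20 CPM in N_WT and 65.0 ± 6.68 CPM in N_KO (SD, n = 5), a ratio of 0.815 that was 0.901 without Gm2004. Under OGD the ratio of KO to WT was 0.988 over 8 copies. Gm14391 made up 42.0% ± 4.87 of the summed member reads in N_WT, and Gm2004 9.61% ± 2.50.

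**Figure D5:**
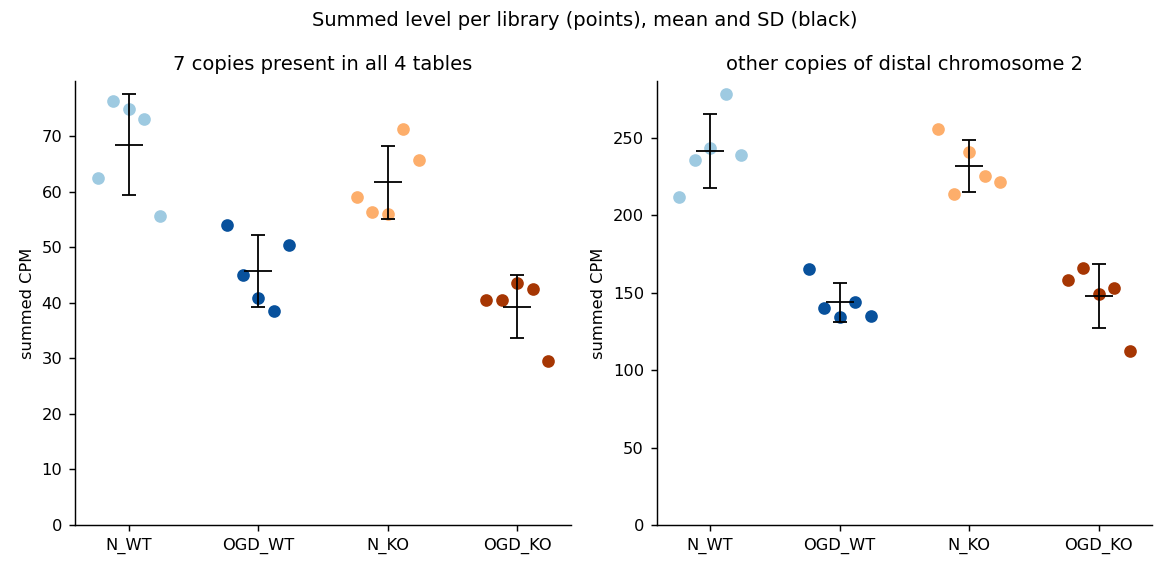
Summed CPM per library (vertical axis, from 0) in the 4 groups, for the 7 copies listed in all 4 tables (left) and the other measured copies of the region (right). Points are libraries 1 to 5 from left to right and black bars the mean ± SD. In both panels every OGD library lies below every normoxia library of its genotype on this scale, CPM over the table total. On the scaling of the deposited tables the WT groups of the 7 copies overlap. The 7 copies include Zfp973 without Zfp965, and both Zfp973 and Gm14418 were chosen on these libraries.

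Other zinc finger copies of the same region, a list of 45 symbols of which 20 were measured, had sums under OGD of 0.595 of normoxia in WT and 0.638 in KO as CPM over the table total, and 0.723 and 0.777 on the scaling of the deposited tables, without overlap on either. KO to WT ratios were 0.954 in normoxia and 1.02 under OGD. Of these, 8 of 18 (44.4%) were called lower and 0 higher in WT, against 22.8% lower among all genes, with a median log2 difference of -0.49. In KO, 4 of 19 (21.1%) were called lower and 0 higher, near the 19.9% of all genes, with a median of -0.31. The medians of all genes tested were -0.03 and 0.00. Zfp970, Gm14399 and Gm14443 were called lower in both genotypes. Gm14443 fell by 1.17 log2 CPM in WT and by 0.64 in KO (limma adjusted p = 3.0e-05 and 0.0119). None of these copies was called between genotypes, where limma called only 5 of 14152 genes in normoxia and 4 of 14185 under OGD. None had groups that did not overlap there, against 0.325% and 0.345% of all genes, so nothing is read from either count.

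Beyond the region, 44 of 116 other KRAB-type zinc finger genes were called lower and 6 higher in WT under OGD (37.9% lower, median -0.25), and 33 (28.2%) and 8 of 117 in KO (median -0.14). Among all genes 22.8% were called lower and 21.6% higher in WT, and 19.9% and 21% in KO. In either direction 43.1% of the list was called in WT and 35.0% in KO, against 44.3% and 40.9% of all genes. The corepressor machinery through which KRAB proteins act did not move one way. Of its 21 measured genes, 2 were called higher and 3 lower in WT, and 3 higher and 2 lower in KO, in all 23.8% in each genotype against 44.3% and 40.9% of all genes. Rbbp4, a histone-binding subunit, rose by 0.52 and 0.50 log2 CPM in WT and KO, and Uhrf1, which binds hemimethylated DNA, by 0.43 and 0.60. Tasor and Pphln1, subunits of the HUSH silencing complex, fell by 0.76 and 0.49 in WT and by 0.58 and 0.39 in KO. Atf7ip was called only in WT, with -0.95 there and -0.28 in KO (limma adjusted p = 0.0461 and 0.599). Cbx3 was called only in KO, with 0.31 in WT and 0.39 in KO (limma adjusted p = 0.125 and 0.0421). Mphosph8, the HUSH subunit that binds methylated histone H3, was not called, with differences of 0.21 in WT and 0.23 in KO (limma adjusted p = 0.402 and 0.264). Trim28, the KRAB corepressor itself, differed by 0.31 in WT and 0.30 in KO (limma adjusted p = 0.0744 and 0.113).

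Summed neuron and proliferation markers lay apart between OGD and normoxia in both genotypes, while summed astrocyte and oligodendrocyte lineage markers overlapped. The 8 neuron markers summed to 5366 to 6624 CPM in N_WT against 2759 to 4707 in OGD_WT, and to 5461 to 5922 in N_KO against 2446 to 4073 in OGD_KO, with 5 of 8 called lower and 0 higher in each genotype. The 6 astrocyte markers summed to 1041 to 1339 CPM in N_WT and 1217 to 1759 in OGD_WT, and to 788 to 1476 in N_KO and 1018 to 1742 in OGD_KO. Of these, 3 were called higher and 1 lower in WT, and 2 higher and 0 lower in KO. The 6 measured oligodendrocyte lineage markers summed to 300 to 389 CPM in N_WT and 277 to 436 in OGD_WT. In KO they summed to 211 to 419 CPM in N_KO and 207 to 361 in OGD_KO. There 1 was called higher and 2 lower in WT, and 2 higher and 0 lower in KO. The 5 proliferation markers summed to 429 to 565 CPM in N_WT and 687 to 1241 in OGD_WT, and to 399 to 644 in N_KO and 730 to 1119 in OGD_KO, with 5 of 5 called higher in each genotype. The part of these in the OGD differences of the zinc finger copies was not tested, and in bulk RNA fewer cells of a type and less RNA per cell cannot be told apart. Between genotypes 0 of the 8 neuron markers were called, where limma called only 5 of 14152 genes in normoxia and 4 of 14185 under OGD. Their median KO minus WT differences were 0.01 in normoxia and -0.09 under OGD. In normoxia 4 were higher and 4 lower in KO, and under OGD 2 were higher and 6 lower.

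Across the 15 libraries in which Gm2004 has a value, the genes whose log2 CPM followed it most closely among 13681 were 9330121J05Rik (r = 0.83), 9330104G04Rik (0.80), Kcnab3 (0.78), Tst (0.78) and Fam110d (0.77). The most opposed were Gm8855 (-0.78), Hmgb1-ps2 (-0.75), Gm42929 (-0.71), Eci1 (-0.71) and Cfap54 (-0.69). For the sum of the 7 copies over 20 libraries the closest were Gm14399, a copy of the same region (r = 0.95), Hmox2 (0.95), Fam228a (0.94), Rpgr (0.93) and A930033H14Rik (0.93), and the most opposed Rapgef3 (-0.90), Arhgef39 (-0.89), Gm22513 (-0.88), Hspa1a (-0.88) and Scarna3a (-0.88). These are descriptions over libraries that share groups, depth and scaling.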

How the data were processed

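The authors deposited 4 tables of log2 CPM, 1 per comparison, with 10 libraries each, a unit given by the table names. The build is mm10, per the submitters' processing notes, and the aligner, the counting, the annotation and the gene filter are not given in the sources used here. In each gene and group the lowest and highest values had been drawn towards their neighbours (weights 0.6 and 0.4), which was inferred from the values and undone. As deposited, 45.3% to 92.8% of a library's values gave whole reads within 0.05 reads (genes of up to 500 reads), and after undoing at least 99.9% did. CPM here is recovered reads scaled to a common total over the genes listed. Depth limits low copies: at 10 reads or fewer, counting error is large.

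Each comparison was fitted on its whole table with limma 3.58.1 in R 4.3.3 (trend, no block), two-sided, with calls at adjusted p (Benjamini-Hochberg) under 0.05, and the code was tested on simulated data. A difference in log2 CPM understates the change of low genes, because an offset is added. Same-numbered N and OGD libraries share culture and batch labels, which pairs them by label, although their deviations from the group means correlated at -0.533 to 0.0788 in WT and -0.762 to -0.0604 in KO. Sequences were compared with edlib 1.3.9.post1 on GENCODE M21 transcripts, and a zinc finger motif is C, 2 residues, C, 12 residues, H, 3 to 5 residues, H in the translated coding sequence.

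The copies and lists were chosen with earlier results of these data known. Full values are given for copies averaging at least 20 reads in a group, and further genes are the 5 most and least like Gm2004 and the sum by Pearson's r, the region's copies called in both OGD comparisons, and Cdr1as. Alternatives covered the clipping, the prior count, scaling, low-count filter, block, batch and leaving out libraries.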

Additional observations from a re-analysis of the deposited data

Results flagged for a closer look

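Of 55 groups of 5 libraries examined for a library far from the other 4, 4 had one, where chance gives about 1 in 20, or 2.75. Gm2004 in OGD_WT replicate 4 was at 0.542 CPM, with the other 4 libraries at 0. With those at 0, any read would be flagged, so nothing is read from it. The other 3 concern OGD_KO replicate 5, which lay low. There Gm14295 was at 0.934 CPM against 4.57 to 5.09 in the other 4 libraries. Gm14305 and Gm14308 together were at 4.80 CPM against 7.58 to 8.35. The sum of the 7 copies in all 4 tables was at 29.5 CPM against 40.5 to 43.6. That sum includes Gm14295, Gm14305 and Gm14308, so it is not a separate flag.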

How the results depend on the processing

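The planned count tests were not run, because the deposited unit is log2 CPM; limma voom on the recovered reads, TMM and median-of-ratios scaling stood in. They were added once the data had been seen, with the table-total scaling, the alternatives for the gene lists and the sum over the copies in all 4 tables. Each of the 3 WT calls for single copies was lost in 7 to 10 of 24 alternatives. With the reads scaled to the table total, 6 of 7 copies were called in WT and 7 of 9 in KO, 13 and 11 of the other copies of the region were called, and Gm14418 in WT turned to -0.076 (not called in either). That scaling put the median log2 ratio of all genes at -0.30 in WT and -0.28 in KO. The share of all genes called on it is not given beside these counts, so nothing is read from them. The copies counted as called in these fits include the chosen Gm14418 and Zfp973 in WT, and in KO also Gm14419 and Zfp965. The replicate block (culture) left 1 WT call among the copies. It added no call among the copies. In the genotype comparisons libraries share only a number (correlations of -0.171 to 0.238, 2 of 5 best with their own number in each), and the block left each difference as it was. On the deposited clipped values 10 (WT) and 9 (KO) corepressor genes and 7 region copies in KO were called. On batch 3 cultures only, KO gave 2 region copies, 0 corepressor genes and 9 other KRAB-type genes. The share of all genes called in these 2 alternatives is not given beside the counts, so nothing is read from them about the lists. Leaving out 1 culture or library gave 0 to 3 called copies in WT, 3 to 10 corepressor genes and 32 to 55 KRAB-type genes in WT, and 2 to 6 region copies, 1 to 7 corepressor genes and 21 to 40 KRAB-type genes in KO. Over all genes the same fits called 4313 to 6993 in WT and 4025 to 5930 in KO. For the summed level of all copies present, the log2 ratio of KO to WT in normoxia was -0.30, against -0.15 without Gm2004, -0.15 over the copies in all 4 tables and -0.12 with the other copies of the region. The log2 ratio of OGD to normoxia was -0.73 in WT and -0.49 in KO. It was -0.42 and -0.20 from unlogged deposited values, -0.45 and -0.21 with TMM factors, and -0.44 and -0.22 with median-of-ratios size factors. The direction of the summed ratios held in all of these. On every scaling other than the table total, the WT groups of the 7-copy sum overlapped. On those scalings the OGD and normoxia groups of the sum over all copies present overlapped in both genotypes. The cause of other shifts was not tested. Depth limits Gm2004, Gm14419, Gm14418, Gm14322 and Zfp965, which hold under 20 reads in many libraries. Their log2 differences grow with a prior count of 0.5, for example to -7.31 for Gm2004 and 2.11 for Gm14419 in normoxia and to 3.82 for Zfp965 under OGD.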
